A study of Mus musculus with 2 samples.

Results

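The genes described here encode the subunits of the mitochondrial respiratory chain and of ATP synthase, from the nuclear genome and from the mitochondrial genome, in mouse neural tube at embryonic day 12.5. Members were taken by symbol from the deposited GENCODE M21 gene tables. They are the protein-coding rows whose symbol begins with mt- or Uqcr, or with Nduf followed by a, b, c, s or v and a digit, together with Sdha to Sdhd, the Cox4 to Cox8 families and the Atp5 family. The rule found 98 rows among 22028 protein-coding rows and 55536 gene rows in all. Of these, 85 are nuclear (37 in complex I, 4 in complex II, 8 in complex III, 18 in complex IV and 18 in complex V) and 13 are mitochondrial (7, 0, 1, 3 and 2 in the same order). The rule leaves out the subunits Ndufab1 and Cyc1, and it takes in Atp5s, which bears an ATP synthase symbol without being a structural subunit. Ndufa4 carries a complex I symbol but is a structural part of complex IV. Atp5o has 2 rows, of which the row ENSMUSG00000116933.1, a readthrough with Donson, held 0 counts in both libraries.

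Polyadenylated RNA was sequenced in 2 libraries of mouse strain B6NCrl, for which the labels name no treatment and no second condition. Replicate 1 was a pool of neural tubes from 120 embryos and replicate 2 a separate pool from 88 embryos, of both sexes in each case. Each library began with 10 ng of total RNA, primed with oligo-dT and fragmented by tagmentation, with synthetic ERCC RNAs added. A pool averages over its embryos, so the spread between the libraries is not a spread between animals.

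Oxidative phosphorylation passes electrons from NADH and succinate through complexes I to IV to oxygen and uses the resulting proton gradient to drive ATP synthase, which is complex V. Nuclear genes encode most subunits, and the small circular mitochondrial genome encodes hydrophobic core subunits of every complex except complex II. Copies of mitochondrial DNA have also been carried into nuclear chromosomes during evolution, and such copies can resemble the original closely. In developing nervous tissue, progenitors use glycolysis to a large extent, and neurons come to depend on oxidative phosphorylation as they mature.

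The libraries held 33529531 and 35461403 estimated counts, of which 32527913 and 34436572 lay on genes. Levels are given in TPM, an abundance unit that divides the count by the length of the RNA and so allows levels of different genes to be compared. All 6 neural progenitor markers and all 6 neuron markers exceeded 1 TPM in both libraries, with Fabp7 at 1395 and 1464 TPM and Tubb3 at 953 and 982 TPM. RNA of other cell types was present as well. The 7 erythroid markers, all expressed, summed to 8902 and 8685 TPM, the 14 skeletal muscle markers to 521 and 381 TPM (13 expressed, Ckm at 0.16 and 0.28 TPM), and the 7 heart markers to 26.7 and 17.6 TPM (5 expressed, Nkx2-5 at 0.17 and 0.04 TPM).

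Of the 98 members, 95 reached 1 TPM in both libraries, where 60.9% of protein-coding genes did. The 3 others were Cox7b2, Cox8c and the second row of Atp5o. In both libraries 85 members stood at 100 TPM or more, a level that 7.3% of protein-coding genes reached. In all, 88 members lay above the median of the expressed protein-coding genes, which was 21.7 ± 0.456 TPM (SD, n = 2). Members took 1.99% ± 0.0366 of the counts on genes, divided into 1.21% ± 0.0294 for nuclear and 0.785% ± 0.00728 for mitochondrial members.

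**Figure D1:**
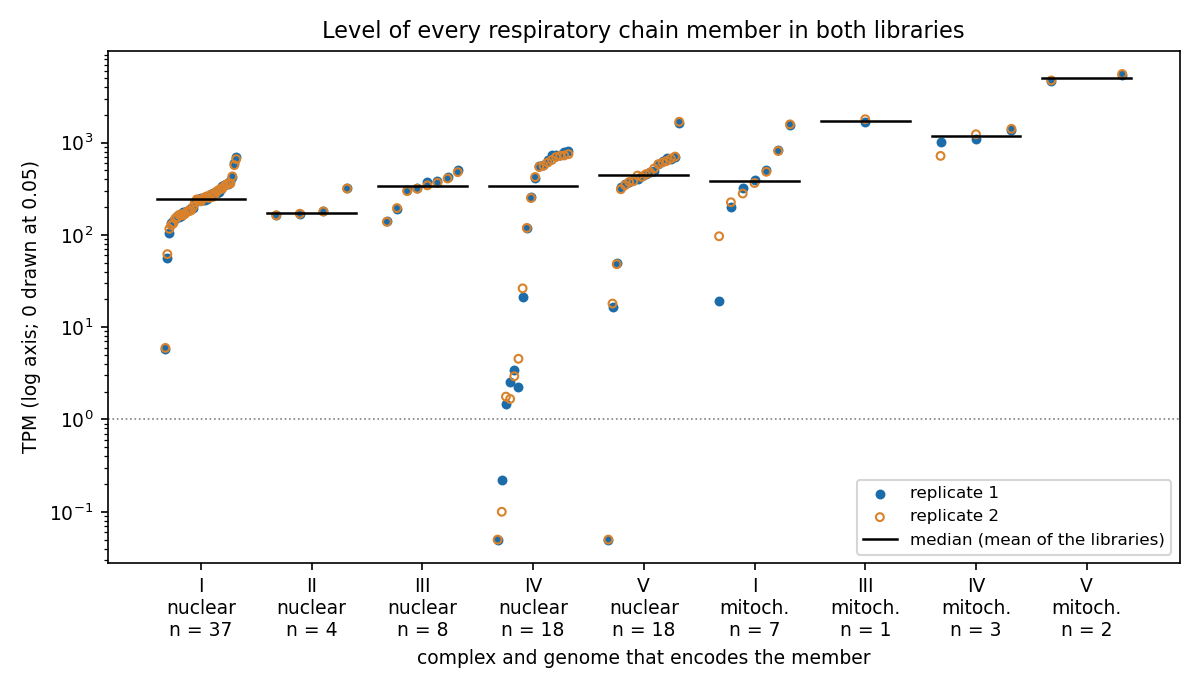
TPM of each member on a log axis, ordered by level within each complex and genome; filled points are replicate 1, open points replicate 2, and lines are medians, taken in each library and averaged. The nuclear medians lie between 175 and 446 TPM, a group of complex IV members lies far below its median, and the mitochondrial members reach 5445 TPM.

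Nuclear members of complex V had the highest median of the 5 complexes, 446 ± 1.64 TPM (SD, n = 2, as for all medians below). Complexes III and IV followed at 339 ± 11.9 and 337 ± 0.0354 TPM and did not differ beyond their spread. Complex I stood at 242 ± 1.5 TPM and complex II at 175 ± 0.0177 TPM. The place of complex IV rested on its 7 tissue-restricted paralogs: its other 11 members had a median of 627 ± 27.8 TPM, above complex V. Over the 82 nuclear members at 1 TPM or more, Spearman's correlation between RNA length and mean TPM was -0.35; these points share the same 2 libraries, and TPM itself contains the length.

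Complex I takes electrons from NADH. Its highest nuclear members by symbol were Ndufa4 at 695 and 662 TPM, Ndufc1 at 607 and 570 TPM, and Ndufb8 at 427 and 431 TPM. Since Ndufa4 is a part of complex IV, the highest subunit of complex I itself was Ndufc1. The lowest were Ndufa4l2 at 5.75 and 5.96 TPM and Ndufb4 at 56.8 and 61.9 TPM. All 7 nuclear core subunits, which carry the flavin and the iron-sulfur clusters or the quinone site, stood between 110 and 238 TPM (Ndufs1 and Ndufv2), with a median of 173 ± 5.99 TPM. The 30 other nuclear members by symbol, Ndufa4 and Ndufa4l2 included, had a median of 257 ± 0.237 TPM. Their RNAs are also shorter, with a median length of 615 bases against 1032 bases for the core.

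Complex II, succinate dehydrogenase, is wholly nuclear and also works in the citric acid cycle. Sdhb, the iron-sulfur subunit, stood apart at 321 and 318 TPM. Sdhc was at 182 and 180 TPM and Sdhd at 167 and 170 TPM, both membrane anchors, and the flavoprotein Sdha was at 164 and 163 TPM. The last 3 lay close together and kept their order in both libraries.

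Complex III passes electrons from ubiquinol to cytochrome c. Its small subunits led: Uqcrq at 499 and 478 TPM, Uqcr10 at 424 and 409 TPM, and Uqcrb at 384 and 367 TPM. The Rieske iron-sulfur protein Uqcrfs1 (189 and 195 TPM) and the large core protein Uqcrc2 (142 and 139 TPM) were lowest. All 8 nuclear members lay within 3.49-fold of each other. The nuclear members of complex I spanned 116-fold, and 9.92-fold without Ndufa4 and Ndufa4l2.

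Complex IV, cytochrome c oxidase, reduces oxygen. Cox4i1 was at 815 and 749 TPM, Cox6c at 787 and 726 TPM, and Cox6b1 at 731 and 720 TPM, and all 3 are subunits used in most tissues. The lowest of the 11 widely used members was Cox7a2l, a factor of supercomplex assembly, at 118 and 119 TPM. At the other end Cox7b2 held 2 and 1 counts (0.22 and 0.10 TPM), and Cox8c held none, which allows up to 0.399 and 0.386 TPM at a floor of 3 counts per library.

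In complex V the catalytic head, F1, had a median of 621 ± 16.4 TPM over 5 members. Its catalytic subunit beta, Atp5b, was the highest nuclear member of all at 1631 and 1683 TPM, and the alpha subunit Atp5a1 stood at 670.0 and 671 TPM. Alpha and beta are present in equal numbers in the enzyme, while the RNA of beta exceeded that of alpha in both libraries. The 4 peripheral stalk members had a median of 519 ± 0.375 TPM, led by Atp5h at 696 and 706 TPM, and the 4 other membrane members 453 ± 4.66 TPM. Atp5s was at 16.5 and 18.04 TPM.

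The 13 mitochondrial members ranged from 58.0 to 5445 TPM in their mean. By deposited TPM, mt-Atp6 was highest at 5355 and 5535 TPM, followed by mt-Atp8 at 4621 and 4716 TPM. By the deposited posterior mean, a second estimate of each level, their order was reversed. It put mt-Atp6 at 3839 and 3986 TPM and mt-Atp8 at 4472 and 4568 TPM. Both are ATP synthase subunits read from 1 shared RNA, and their annotated stretches overlap. The comparison depends on the length used, since TPM took 105 of the 204 bases of mt-Atp8 and 582 of the 681 of mt-Atp6. Per kilobase of full length, mt-Atp8 held 49814 and 52593 counts. The value for mt-Atp6, with the nuclear copy described further on, was 103256 and 107232. The cytochrome b gene mt-Cytb stood at 1665 and 1792 TPM and mt-Nd1, of complex I, at 1557 and 1576 TPM. The complex IV core genes followed, with mt-Co1 at 1358 and 1410 TPM, mt-Co2 at 1104 and 1232 TPM and mt-Co3 at 1017 and 718 TPM. Of the other complex I genes, mt-Nd4 was at 824 and 812 TPM, mt-Nd2 at 500 and 483 TPM, and mt-Nd5 at 318 and 281 TPM. The gene mt-Nd6, the only one of the 13 on the minus strand, was at 397 and 365 TPM, mt-Nd3 at 199 and 226 TPM, and mt-Nd4l at 19.3 and 96.7 TPM. The libraries gave nearly the same order, and mt-Co3 and mt-Nd4l were the members that moved most between them.

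The median mitochondrial member exceeded the median nuclear member by 1.70 ± 0.18 on the log2 scale (SD, n = 2). Summed over members the order was the other way round, with 27657 ± 412 TPM on the 85 nuclear and 19088 ± 219 TPM on the 13 mitochondrial genes.

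Several of these mitochondrial values depend on how reads were divided with copies on a nuclear chromosome. On chromosome 1, between positions 24611535 and 24616197 of mm10 on the minus strand, the GENCODE M21 annotation holds 7 unprocessed pseudogenes. They match 7 mitochondrial genes in the same order. Chromosome 1 sequence that lies in no annotated transcript was not compared with any mitochondrial gene, mt-Atp8 included. Over the aligned stretch the copies of mt-Co2, mt-Atp6, mt-Co3, mt-Nd4l and mt-Nd4 (Gm28661, Gm10925, Gm28437, Gm10222 and Gm28439) had 0 substitutions. The copies of mt-Co1 (Gm29216, 483 of its 492 bases aligned) and mt-Nd3 (Gm28438, all 345 bases aligned) had 1 each. Differences in the unaligned bases at the start of Gm29216 are not in that count. The ends of mt-Co3 and its copy are printed from the annotated transcripts, because they show how little a read can use to tell them apart. The capital letter is the single base that the annotated gene holds beyond the copy, at the end of the coding sequence of mt-Co3 (chrM:8607-9390, plus strand; the copy at chr1:24613189-24613971, minus strand).
mt-Co3, last 60 bases: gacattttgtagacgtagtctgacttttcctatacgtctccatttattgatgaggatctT
Gm28437, last 60 bases: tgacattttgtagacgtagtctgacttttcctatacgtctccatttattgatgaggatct

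For mt-Nd3 (chrM:9459-9806, plus strand) and Gm28438 (chr1:24612775-24613119, minus strand) the first 30 bases are printed, where the substitution T3C lies. The mitochondrial base comes first, its position is counted from 1 at the first coding base, and the capital marks it. Both sequences are those of the reference, and the base that strain B6NCrl holds here in its mitochondrial genome was not checked.
mt-Nd3, first 30 bases: atTaacctgtacactgttatcttcattaat
Gm28438, first 30 bases: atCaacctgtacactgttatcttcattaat

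Between 97.6% and 99.9% of the 100-base windows of mt-Nd3, mt-Nd4l, mt-Atp6, mt-Co2 and mt-Co3 occurred in another annotated gene, so a read inside such a window has no letter that tells its source. For mt-Nd4 the share was 60.8% and for mt-Co1 30.8%. Copies on chromosome 2 also share windows: Gm13340 with mt-Co1 (5.53%), Gm13341 with mt-Co2 (15.04%) and Gm13339 with mt-Nd2 (3.19%). They held 10.7 and 16.1, 9.54 and 11.1, and 0 and 0 counts in the libraries, and are left out of the sums given here. Among all 98 members, 59 shared no such window with any other gene.

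The estimated counts were divided unevenly. The copy Gm28437 received 81.2% and 86.4% of the counts it shares with mt-Co3, and Gm28438 received 81.9% and 80.6% of those it shares with mt-Nd3. For mt-Nd4l the copy Gm10222 received 95.4% in replicate 1 and 73.9% in replicate 2. The shares were 58.6% and 56.0% for mt-Co2, 32.8% and 31.0% for mt-Co1, and 7.17% and 4.42% for mt-Atp6. Gm28439, the copy of mt-Nd4, held 0 counts in both libraries. In all, the copies held 113582 and 117125 counts, which is 30.5% ± 0.198 of the counts on mitochondrial members and copies together.

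**Figure D2:**
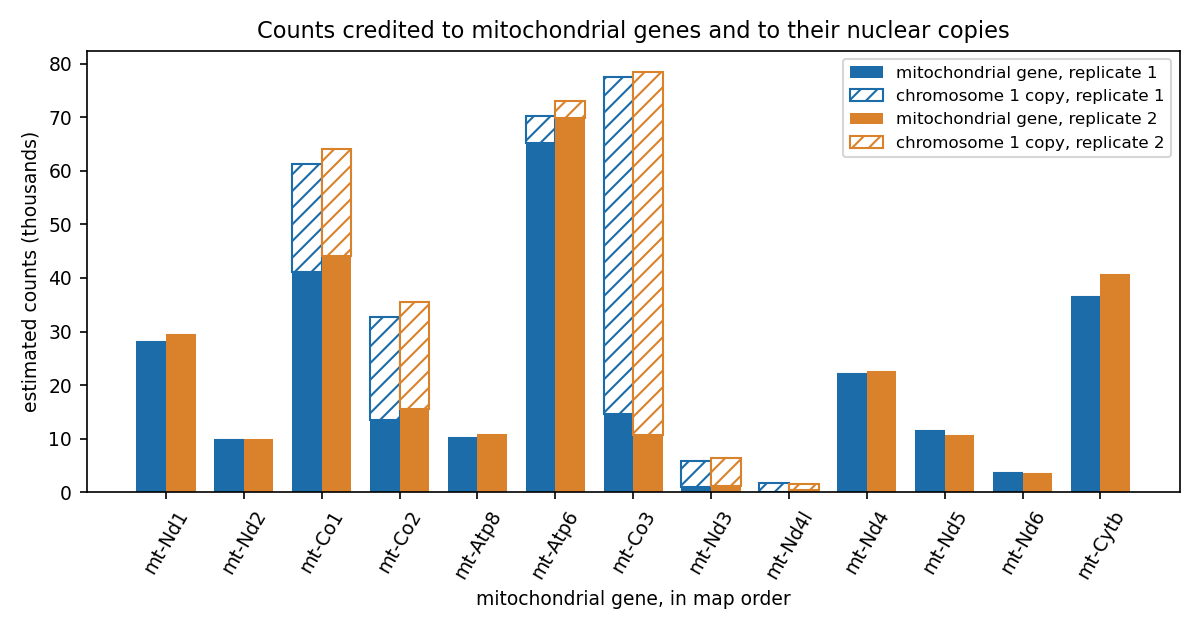
Estimated counts, in units of 1000, for each of the 13 mitochondrial genes, stacked with those of the chromosome 1 copy (hatched), in each library. The sum for mt-Co3 is 77543 and 78519 counts although most of it is credited to the copy. The 6 genes without an annotated copy there, and mt-Nd4, have no hatched part.

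Added together, gene and copy gave a different order from the deposited levels. The sums were 5771 and 5792 TPM for mt-Atp6, 5411 and 5297 TPM for mt-Co3, 3799 and 3745 TPM for mt-Co1, and 2674 and 2811 TPM for mt-Co2. For mt-Nd3 they were 1110 and 1177 TPM and for mt-Nd4l 424 and 374 TPM. With copies added, an alternative chosen after seeing the data, the median mitochondrial member exceeded the nuclear one by 2.48 on the log2 scale. Whether any of these reads came from chromosome 1 was not tested.

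The deposited posterior standard deviation is an estimate of the uncertainty of each count from the sharing of reads. It exceeded 10% of the count in either library for 5 members, against 2.08% of protein-coding genes with 10 or more counts in both libraries. In replicate 1 and replicate 2 it was 165% and 55.5% of the count of mt-Nd4l, 20.7% and 37.1% for mt-Co3, 22.5% and 20.9% for mt-Nd3, and 15.9% and 10.1% for mt-Co2. The fifth was Atp5g2 at 10.7% and 9.60%. For 54 members it was 0 in both libraries. It does not cover all of the uncertainty from sharing. For mt-Atp6 it was 3.79% and 3.64% of the count, while the posterior mean was 3839 and 3986 TPM in place of 5355 and 5535 TPM. For mt-Co3 it was 3022 and 3948 counts with M21 and 20035.5 and 22041.8 counts with the older M4 annotation.

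Several subunits exist as a widely used form and a paralog known from particular tissues. In every such pair of complex IV, and for Ndufa4, the widely used form dominated. Cox4i1 exceeded Cox4i2, the form known from lung and oxygen-sensing cells, by 7.95 ± 0.07 on the log2 scale (Cox4i2 at 3.42 and 2.94 TPM). Cox6a1 exceeded the striated muscle form Cox6a2 (2.55 and 1.67 TPM) by 8.44 ± 0.37. Cox7a2 exceeded the muscle form Cox7a1 (2.27 and 4.55 TPM) by 7.43 ± 0.74, and Cox8a exceeded Cox8b (1.46 and 1.77 TPM), another form of striated muscle and brown fat, by 8.75 ± 0.33. Cox8a was at least 1681-fold higher than Cox8c, which was at 0 and was set to 3 counts per library. Cox7b stood at 259 and 251 TPM beside the 2 and 1 counts of Cox7b2. Ndufa4 exceeded Ndufa4l2, a gene induced by low oxygen and found in pericytes, by 6.86 ± 0.08; all 6 pericyte markers were expressed, with sums of 49.1 and 52.2 TPM.

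Cox6b2, the form known from testis, stood out among the restricted paralogs at 21.4 and 26.4 TPM, with 181 and 223 counts. Cox6b1 exceeded it by 4.93 ± 0.23 on the log2 scale, the smallest gap of the complex IV pairs. None of the 4 male germ line markers reached 1 TPM in both libraries; their sums were 0.98 and 0.69 TPM, and Mael was at 0.

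**Figure D3:**
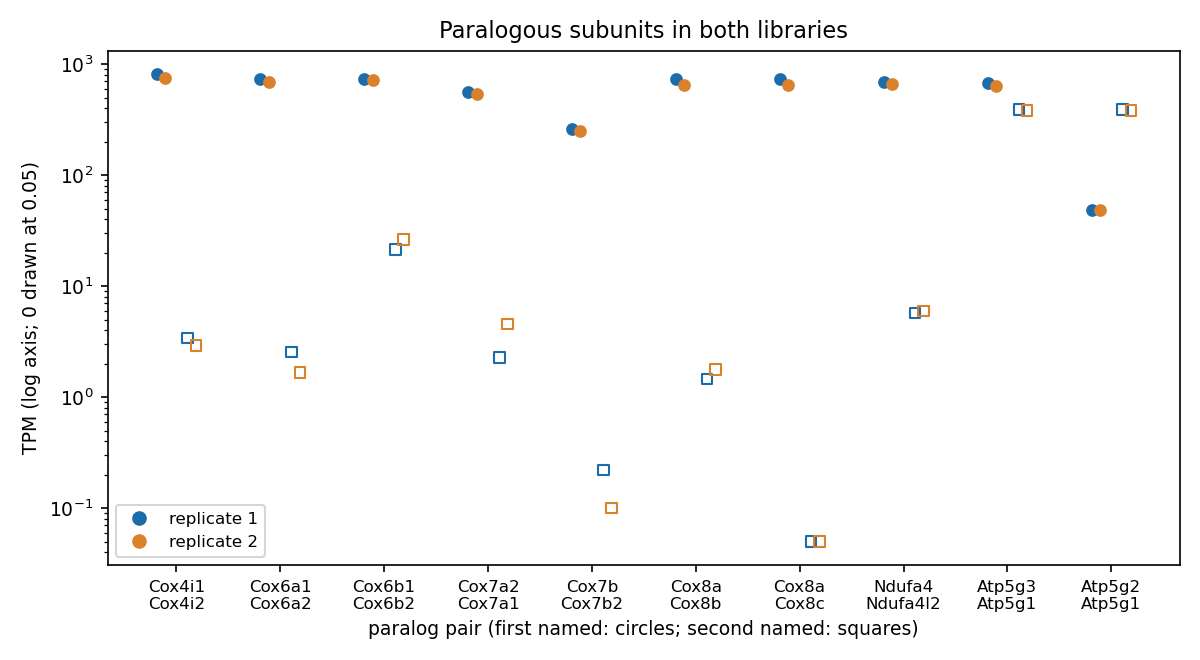
TPM on a log axis of the paralog pairs, with the first named gene as circles and the second as squares, in both libraries. The restricted forms of complex IV lie between 0 and 26.4 TPM, whereas the c-ring genes Atp5g1 and Atp5g3 lie close together.

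The c ring of ATP synthase, the rotor that protons turn, is built from 1 mature protein encoded by 3 genes. Here no single gene accounted for nearly all of the RNA. Atp5g3 was at 681 and 632 TPM and Atp5g1 at 393 and 381 TPM, a log2 difference of 0.76 ± 0.04. Atp5g2, at 49.1 and 48.2 TPM, was lower than Atp5g1, with a log2 ratio of -2.99 ± 0.01. That value is uncertain, because 34.7% of the windows of Atp5g2 are shared with the processed pseudogenes Gm10175 and Gm10231, and against the older M4 annotation the ratio was -1.69.

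Level per gene and level of coding RNA differed for a few members. In 9 of the 95 expressed members the transcript with the most TPM was annotated as something other than protein-coding, a share close to the 8.97% of all expressed protein-coding genes. All 9 were named after their values were seen. The leading transcript was a processed transcript in Ndufa5 (88.0% and 88.1% of the gene's TPM), Cox7a2 (61.1% and 59.8%) and Cox5b (57.9% and 60.2%). A transcript with a retained intron led in Ndufb4 (78.3% and 81.3%), Atp5j (57.5% and 59.95%) and Ndufa10 (27.0% and 26.9%). A transcript annotated for nonsense-mediated decay led in Ndufa3 (72.4% and 74.4%), Atp5f1 (53.8% and 51.9%) and Ndufs4 (32.2% and 33.8%). These shares hardly differed between the libraries.

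Counting coding transcripts alone changed the levels of these genes considerably. Ndufa5 was then at 29.6 and 32.5 TPM in place of 262 and 273 TPM, and Ndufb4 at 10.2 and 7.97 TPM in place of 56.8 and 61.9 TPM. The median of complex IV became 138 TPM when all of its nuclear members were treated so, and that of complex I 214 TPM. For complex IV the 7 tissue-restricted paralogs place that median among its lowest widely used members. Of the 11 widely used members the middle one, Cox5a, hardly changed. It held 643 and 604 TPM on coding transcripts, against 647 and 607 TPM on all transcripts. The division of reads among transcripts is an estimate.

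**Figure D4:**
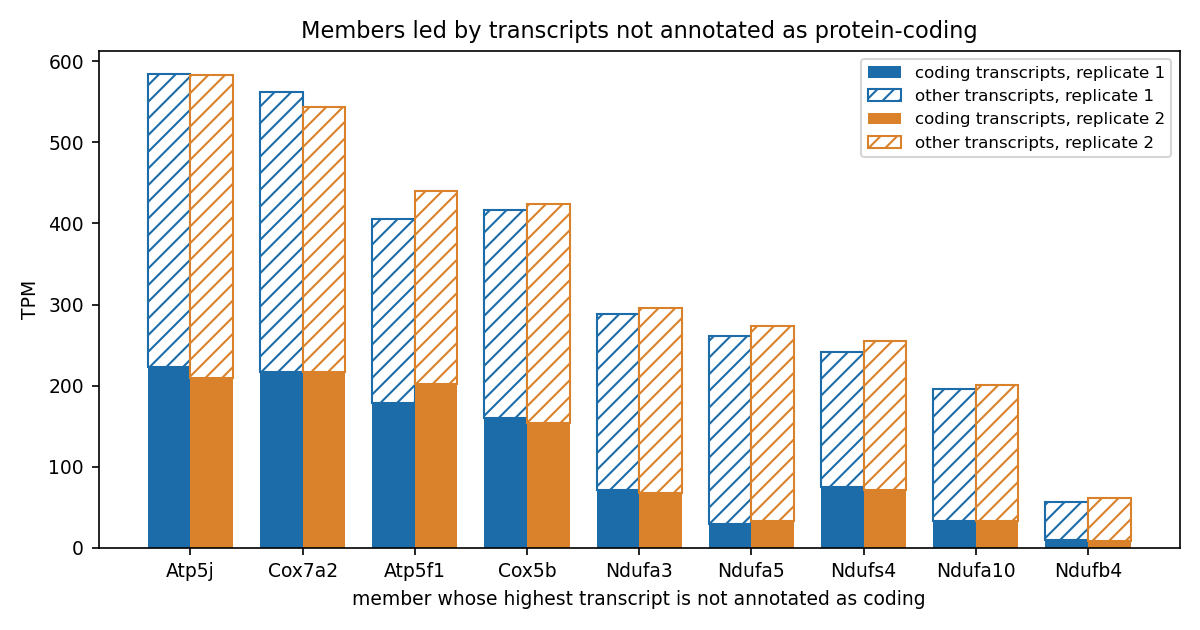
TPM of the 9 expressed members whose highest transcript is not annotated as protein-coding, split into coding transcripts (filled) and all other transcripts (hatched) in each library. Coding transcripts make up less of the bar than the others in all 9, and both libraries show the same division.

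With a single group, the only contrast is between the libraries, and it has no replicate check. After TMM scaling, 95 members had at least 10 counts in either library, and 4 of them passed the fold threshold (25% higher or 20% lower in replicate 2), as did 23.3% of 20125 genes. Among genes with 1000 or more counts in a library the background was 2.11% of 7620 genes, and 1 of 85 members was past it. The 4 members were mt-Nd4l, mt-Co3, Cox7a1 and Cox6a2, and none of them has a firm value.

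Replicate 1 held 80.2 counts of mt-Nd4l and replicate 2 held 415, which gave a log2 ratio of 2.26. With its copy Gm10222 added, the counts were 1734 and 1587 and the log2 ratio was -0.22. The count of mt-Co3 was 14585 and 10652, a log2 ratio of -0.54, and -0.07 with Gm28437 added. It was also within the threshold with the M4 tables and with posterior mean counts, whereas mt-Nd4l stayed past it, at 2.21 and 1.51. By posterior mean, mt-Co3 was at 2094 and 1959 TPM and mt-Nd4l at 41.9 and 123 TPM. With copies added, no mitochondrial gene was past the threshold, and the ratios lay between -0.22 and 0.07. For both genes the sum differed less between the libraries than the gene alone.

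Cox7a1 had 14 and 29 counts, a log2 ratio of 0.87 whose 95% counting interval ran from -0.0050 to 2.00. Cox6a2 had 31 and 21 counts, a log2 ratio of -0.60 with an interval from -1.52 to 0.19. Both intervals include 0, so neither difference was detectable at this depth; the intervals cover counting error only. These are the muscle forms of their subunits, and their ratios had opposite signs. Of the skeletal muscle markers with enough counts, 12 of 13 were lower in replicate 2 past the same threshold (median log2 ratio -0.50). The same held for 4 of 6 heart markers (median -0.60) and for 13.2% of all genes. The part of muscle RNA in the ratios of Cox7a1 and Cox6a2 was not tested. Cox8b, with 8 and 10 counts, had a log2 ratio of 0.19.

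**Figure D5:**
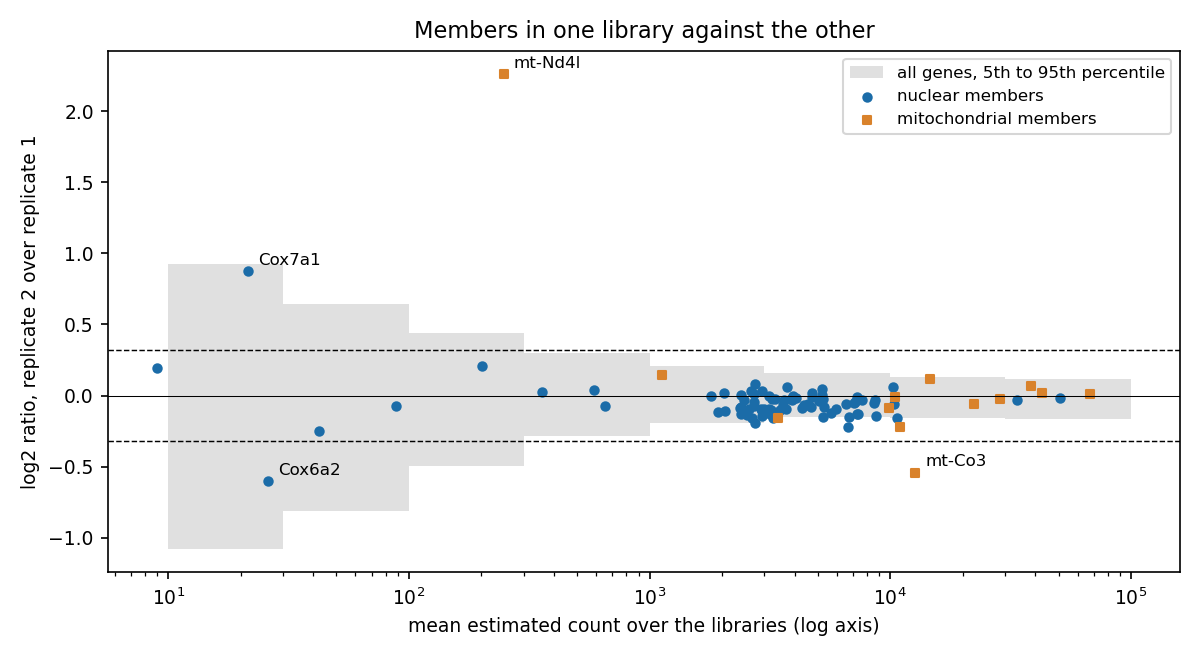
Log2 ratio of replicate 2 over replicate 1 against the mean count on a log axis for nuclear (circles) and mitochondrial (squares) members, with dashed lines at the fold threshold and a band from the 5th to the 95th percentile of all genes of similar count. Cox7a1 and Cox6a2 lie inside the band of low-count genes, and mt-Nd4l and mt-Co3 lie outside theirs.

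Most nuclear members differed little between the libraries, as did well-counted genes in general. Among 2409 genes with mean counts from 3000 to 10000, the 5th to 95th percentiles of the log2 ratio were -0.149 and 0.162. Of 82 nuclear members, Cox7a1 and Cox6a2 included, 67 were within 10%, a share that was not computed over all genes. In replicate 2, 66 were lower and 16 higher, where 50.2% of all genes were lower. The nuclear median log2 ratio was -0.06, against -0.00093 over all genes. All 11 widely used complex IV members had ratios below 0, from -0.22 for Cox8a to -0.02 for Cox7b, with 736 and 648 TPM for Cox8a. An exact binomial test of the counts, which covers counting error only, called 36 members (4 higher, 32 lower). It called 20.3% of all genes (10.5% higher and 9.78% lower). The test calls smaller differences at higher counts, and 85 members but only 7620 of 20125 genes had 1000 or more counts in a library. The share over all genes is therefore not matched to the members, and a matched share was not computed. With scaling to the ERCC spike-ins the all-gene median moved to 0.05 and the nuclear median to -0.0033; relative to all genes the nuclear members stayed lower by a like amount. The mitochondrial median moved with the all-gene median too, from -0.01 with TMM to 0.05 with ERCC scaling, and lay close to it under both. In bulk RNA, fewer cells of a type and less RNA per cell cannot be told apart.

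Genes that build or regulate the chain had list medians below the nuclear medians of all 5 complexes, with overlap between single genes that was not tested. Of the subunits and carriers that the rule leaves out, Ndufab1 was at 502 and 492 TPM, the cytochrome c1 gene Cyc1 at 303 and 289 TPM, and the somatic cytochrome c gene Cycs at 54.6 and 58.5 TPM. All 14 assembly factors of complex I were expressed, with a median of 37.7 ± 0.0389 TPM; Acad9 (72.3 and 73.7 TPM) and Ndufaf2 (54.6 and 62.3 TPM) led, and Nubpl, which delivers iron-sulfur clusters, was lowest at 7.04 and 6.92 TPM. The 4 factors of complex II had a median of 34.4 ± 1.71 TPM, with Sdhaf4 highest (61.1 and 63.2 TPM) and Sdhaf3 lowest (5.15 and 5.18 TPM). The 6 factors of complex III had a median of 39.6 ± 1.45 TPM, between Uqcc2 at 251 and 242 TPM and Lyrm7 at 6.81 and 5.81 TPM. For complex IV, 17 of 18 factors were expressed, with a median of 41.0 ± 0.750 TPM; Coa3 led at 167 and 159 TPM, and Pet117 held 32.7 estimated counts in replicate 1 and 0 in replicate 2. The 3 factors of complex V had a median of 31.8 ± 4.31 TPM, with Tmem70 highest at 47.7 and 50.5 TPM.

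All 12 genes of mitochondrial transcription, replication and RNA handling were expressed, with a median of 34.6 ± 0.463 TPM. Slirp, which binds mitochondrial messenger RNA, led at 190 and 208 TPM, and the methyltransferase gene Tfb1m was lowest at 13.8 and 12.9 TPM. All 9 nuclear regulators were expressed, with a median of 20.4 ± 0.191 TPM. Hif1a, the oxygen-regulated factor, led with 90.5 and 98.3 TPM, and the coactivators Ppargc1a (2.96 and 3.34 TPM) and Ppargc1b (1.15 and 1.40 TPM) were lowest. Of 6 uncoupling proteins and nucleotide carriers 3 were expressed. The ATP/ADP carriers Slc25a4 (479 and 501 TPM) and Slc25a5 (480.2 and 492 TPM) stood level with each other, and the brown fat gene Ucp1 was at 0.12 TPM in both. In these 9 lists, 2 of the 73 genes with enough counts were past the fold threshold between the libraries, beside 23.3% of all genes, and both were lower in replicate 2 (13.2% of all genes): Pet117 and the germ cell carrier Slc25a31, with 11 and 3 counts.

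Nuclear genes of the chain are known targets of the factor NRF1, of GABPA, which belongs to the ETS family, and of YY1. RefSeq promoters on GRCm38.p6, from 250 bases before to 50 bases after the start, were at hand for 68 members, and were searched on both strands for exact letters. The 10-base NRF1 motif, spelled in capitals in the windows printed further on, lay in 5 members, 7.35%, against 2.29% of 10414 expressed protein-coding genes and 1.07% of 27025 promoters. The shorter core GCATGC, which the longer motif contains, lay in 19.1% against 11.4% and 8.93%. The ETS letters CCGGAAG lay in 23.5% against 19.3% and 9.93%, and the YY1 letters AAGATGGCG in 10.3% against 3.41% and 1.64%. In all, 25 of the 68 held at least 1 of the NRF1, ETS or YY1 motifs in full. The like share over expressed genes was not computed, and the ETS letters alone lay in 19.3% of those genes. These matches are a description of letters and were not tested.

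The 5 windows that hold the longer NRF1 motif are printed, with the motif in capitals, on the strand of the gene; they were chosen for the motif after the search. They lie at chr15:102671070-102671099 (minus strand), chr5:108434430-108434459 (minus), chr5:115349101-115349130 (minus), chr17:56717692-56717721 (plus) and chr9:108936668-108936697 (plus), in the order printed. In the first 4 the motif lies before the annotated start, and in Uqcrc1 it lies after it. The genes differ widely in level, from Atp5g2 at 49.1 and 48.2 TPM to Cox6a1 at 741 and 697 TPM.
Atp5g2: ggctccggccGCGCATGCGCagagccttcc
Atp5k: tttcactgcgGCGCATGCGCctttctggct
Cox6a1: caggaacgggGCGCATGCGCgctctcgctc
Ndufa11: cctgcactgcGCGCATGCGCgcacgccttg
Uqcrc1: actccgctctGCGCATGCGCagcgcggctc

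The choice of annotation moved few levels. Of 97 members found in both releases, 96 had a level above 0 to compare, and 89 of these differed by less than that fold threshold between M21 and M4. Ndufa11 was at 335 and 319 TPM with M21 and at 62.7 and 59.3 TPM with M4, while its counts were 3150 and 3117 with M21 and 3192 and 3135 with M4; its length was 548 bases in M21 and 2661 in M4 in replicate 1. The same held for Ndufs4, at 241 and 255 TPM against 104 and 106 TPM, with nearly equal counts and a length of 1534 bases in place of 699.5 in replicate 1. For Atp5l the counts themselves differed, at 4527 and 4615 with M21 against 1017 and 1059 with M4, and its level was 478 and 475 TPM against 124 and 125 TPM. Atp5g2 was at 49.1 and 48.2 TPM with M21 and at 136 and 117 TPM with M4, and Atp5s at 16.5 and 18.04 TPM with M21 and at 9.80 and 10.0 TPM with M4.

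The exons of 29 members overlap a gene on the opposite strand, and the labels name no step that keeps the strand, so reads there cannot be assigned by strand. The longest overlaps as a share of a member's exon bases were Ndufb6 with Smim27 (39.0%), Ndufa13 with Tssk6 (29.98%) and Uqcrc2 with Pdzd9 (19.7%), which were picked out after the overlaps were seen.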

How the data were processed

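Members, gene lists and alternatives were chosen with earlier results of these data known. The notes deposited beside each library say that transcriptome alignments on mm10 were quantified with GENCODE M21 and again with M4, 1 library at a time. Which aligner and quantifier were used is not given in the sources used here. The authors deposited, per the file headers, expected counts (reads that match several genes are divided by an estimate), TPM over the whole table, the percent of a gene's TPM on each transcript, and for each count its posterior standard deviation. Effective length was the length less 99 bases in both libraries, which raises the TPM of short RNAs.

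TPM was used as deposited, as mean ± SD over the 2 libraries, and a member counted as expressed at 1 TPM in both. For the ratio of replicate 2 over replicate 1, expected counts were rounded, genes with 10 counts in either library were kept, and edgeR 4.0.16 (R 4.3.3) gave TMM factors, with a prior count of 2. A ratio 25% higher or 20% lower was called without a test. The M4 tables, posterior means, DESeq2 1.42.0 size factors, ERCC scaling and an exact binomial test (Benjamini-Hochberg at 0.05) were alternatives. That test was tried on simulated counts with counting error alone, which cannot show its rate of false calls between pools. Windows of 100 bases were compared across all annotated transcripts. Named genes were the 3 highest and 2 lowest members of each complex and genome, mitochondrial and paralog members, those past the fold, uncertain or under 1 TPM, the 5 most changed between releases, and the extremes of each list; others are marked in the text or serve as group limits. The labels name no molecular identifiers, so intervals treat PCR duplicates as separate reads.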

Additional observations from a re-analysis of the deposited data

How the results depend on the processing

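With M4 in place of M21 the nuclear medians were 239 TPM for complex I, 180.4 for II, 356 for III and 327 for IV. With posterior mean TPM they were 235 for I, 169 for II, 328 for IV and 432 for V. With members under 1 TPM left out they were 486 for IV and 454 for V. With coding transcripts only, chosen after seeing the data like the 2 settings named next, they were 214 for I, 138 for IV and 406 for V. With counts per full length they were 227, 178, 322, 313 and 420.3 for I to V. With chromosome 1 copies added, members took 2.34% of gene counts, the mitochondrial to nuclear log2 ratio was 2.48, and 2 members were past the fold threshold. That log2 ratio was 2.18 with posterior means and -0.53 for summed TPM, which compares 13 with 85 genes. Members past the threshold numbered 3 with M4 and with posterior mean counts (without mt-Co3), 2 at a minimum of 100 counts and 36 with the exact binomial test. With 2 libraries, leaving out either cannot move a mean beyond its SD, so it says nothing about stability. Of the paralog ratios, 12 values moved by more than their spread and none changed sign. No paired analysis was possible because there is 1 group. The 2 pools limit every SD here, and depth limits Cox7a1, Cox6a2, Cox8b and Cox7b2. Protein sequences were not used here.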
